A study of Mus musculus with 8 samples.

Results

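Predicted and unnamed mouse genes are loci that an annotation holds under a provisional label in place of a descriptive name. The symbols begin with Gm or LOC and a number, or end in Rik, the mark of the RIKEN full-length cDNA collection. H3K4me3, the trimethylation of lysine 4 of histone H3, was measured by CUT&Tag, in which an enzyme tethered to an antibody releases the chromatin that carries the mark. Of the 35486 peaks listed for this mark, 2522 were analysed here: each lay within 1 kb of the start site of a gene with such a symbol and was the only promoter peak of that symbol. Altogether 17073 listed peaks were promoter peaks by the same limit, and 11556 of these were the single promoter peak of a gene with a name, which served as the set for comparison. A further 68 symbols of the same kind had 2 or more promoter peaks, 141 in all, and were left out by this rule.

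The cells were CD45-CD31-EpCAM+ tumor cells sorted from mouse lungs 10 weeks after intranasal Ad-Cre, an adenovirus that carries Cre recombinase. The KL group (replicates 1 and 2) carried Lkb1fl/fl, and the KLG4m/m group (replicates 3 and 4) carried Lkb1fl/fl and Gpx4m/m. Both groups thus had Lkb1 deleted by Cre, and both received tamoxifen. In the Gpx4m/m allele, later exons of Gpx4, which encodes a peroxidase that removes lipid hydroperoxides, are flanked by rox sites. The recombinase that cuts at these sites is driven by the CAG promoter and needs tamoxifen for activity. It is made only in cells in which Cre has removed a stop cassette. The study's legend for these data counts as many mice per group as there are libraries, while the protocol in the labels gives another number of mice and the labels tie no library to a mouse. The p-values measure the spread between these libraries.

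H3K4me3 marks the start sites of genes that are transcribed or poised, whether the product is a protein or a noncoding RNA, and at CpG-rich promoters it is laid down largely by SET1 and MLL complexes. Many predicted genes are long noncoding RNAs (lncRNAs), known from cDNA or RNA-seq evidence and with no known function. Such transcripts often begin beside the promoter of a coding gene and run in the opposite direction, an arrangement called head to head or divergent. Others are processed pseudogenes, copies of a coding gene whose sequence may be nearly identical to that of the parent.

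By symbol, 1870 of the 2522 promoters belonged to Gm genes, 632 to Rik genes and 20 to LOC genes. The symbols of 2262 (89.7%) were found in RefSeq for GRCm38.p6, which classed 1787 as lncRNA genes, 245 as protein coding, 178 as pseudogenes and 39 as small nuclear, nucleolar or guide RNA genes. Autosomes held 2472 of the promoters, chromosome X 45, chromosome Y 1 and unplaced or random scaffolds 4. Each peak was 400 bp wide, and 1291 of them overlapped the annotated start site itself.

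The libraries held 3244495 to 3463731 reads in listed peaks, of which 7.95% to 8.01% lay in these promoters. The median promoter of the set had 52 to 58 reads per library, which limits the precision of its level, and no more than 1 promoter per library had no read. Values below are CPM, read counts scaled to a common total of reads in peaks, scaled with TMM factors. The promoter of Gpx4 had 242 and 236 reads in KL and 304 and 301 in KLG4m/m. The study places the rox sites around later exons of the gene, and a promoter peak does not check their deletion.

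Markers of cell types were read from promoter peaks. Of 8 genes for lung tumor epithelium 7 had a promoter peak, and their summed level was 224 to 227 CPM in KL and 175 to 194 CPM in KLG4m/m. Epcam, the sorted surface marker, had 142 and 149 reads in KL and 77 and 76 in KLG4m/m, and its promoter was called lower, as was that of Cldn18. Of 10 leukocyte genes 9 had one, with a summed level of 149 to 153 CPM in KL and 176 to 177 CPM in KLG4m/m, with Itgam among those called higher and Lyz2 called lower. The 5 endothelial genes summed to 71.1 to 81.8 CPM in KL and 58.6 to 70.9 CPM in KLG4m/m, and the 3 of 5 fibroblast genes with a promoter peak to 64.4 to 71.7 and 69.3 to 73.1 CPM, Pdgfrb being called higher. Sftpc, Cd79a, Col1a2 and Col3a1 had no listed peak in any library. In all, 2 of 8 epithelial promoter peaks were called lower and none higher, and 2 of 10 leukocyte promoter peaks were called higher and 1 lower. Krt18, Cd3e, Cd3g, Cd68 and Ptprc were among those not called. The part of these shifts in the results that follow was not tested.

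Promoter sequences are shown for 7 genes to which the results turn, each with 1 RefSeq promoter entry and a listed peak that lay over or within 7 bp of the start. They are credited to RefSeq, GRCm38.p6, run 5′ to 3′ along the gene from 250 bases before to 50 bases after the start, and carry in capitals every match, on either strand, to the TATA box letters TATAAA, the CCAAT box, the SP factor letters GGGCGG, the ETS factor letters CCGGAAG, the CRE letters TGACGTCA, the AP-1 letters TGACTCA, or the core motifs of NRF1 and of YY1. The first group holds genes whose promoter was higher in KLG4m/m: Gm35891 (chr3:51128890-51129189, minus strand), Gm13012 (chr4:137883913-137884212, minus strand) and B430306N03Rik (chr17:48315912-48316211, plus strand).
Gm35891: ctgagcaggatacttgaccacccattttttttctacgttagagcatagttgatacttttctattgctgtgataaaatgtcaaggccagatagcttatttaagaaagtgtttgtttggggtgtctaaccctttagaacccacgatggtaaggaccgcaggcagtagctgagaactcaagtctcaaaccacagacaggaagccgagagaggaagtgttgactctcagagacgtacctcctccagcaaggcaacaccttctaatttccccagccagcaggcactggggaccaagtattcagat
Gm13012: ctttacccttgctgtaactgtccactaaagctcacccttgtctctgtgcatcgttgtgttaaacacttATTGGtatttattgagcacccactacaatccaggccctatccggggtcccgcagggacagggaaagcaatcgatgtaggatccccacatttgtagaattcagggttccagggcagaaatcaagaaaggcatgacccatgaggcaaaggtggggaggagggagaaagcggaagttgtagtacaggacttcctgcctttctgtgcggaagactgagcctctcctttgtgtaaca
B430306N03Rik: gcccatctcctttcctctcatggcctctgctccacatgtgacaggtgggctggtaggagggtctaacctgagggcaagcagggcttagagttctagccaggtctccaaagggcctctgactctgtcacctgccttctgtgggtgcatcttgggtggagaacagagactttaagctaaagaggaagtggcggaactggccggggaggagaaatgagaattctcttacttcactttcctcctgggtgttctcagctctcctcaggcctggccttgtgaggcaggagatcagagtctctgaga
These 3 promoters had 5, 6 and 2 CpG sites, against a median of 7 over RefSeq promoters of this length. The single motif match was CCAAT, on the minus strand, in Gm13012.

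The second group holds 2 genes whose promoter was lower in KLG4m/m: Gm35886 (chr2:163939705-163940004, plus strand) and Gm35235 (chr10:120979136-120979435, plus strand), which starts 10 bp from the start of the coding gene Lemd3.
Gm35886: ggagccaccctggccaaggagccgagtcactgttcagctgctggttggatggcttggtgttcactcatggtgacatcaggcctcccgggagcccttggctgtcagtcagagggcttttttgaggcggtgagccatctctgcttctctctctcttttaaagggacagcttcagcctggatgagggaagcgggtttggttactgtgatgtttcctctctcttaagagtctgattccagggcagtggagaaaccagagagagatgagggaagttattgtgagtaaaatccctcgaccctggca
Gm35235: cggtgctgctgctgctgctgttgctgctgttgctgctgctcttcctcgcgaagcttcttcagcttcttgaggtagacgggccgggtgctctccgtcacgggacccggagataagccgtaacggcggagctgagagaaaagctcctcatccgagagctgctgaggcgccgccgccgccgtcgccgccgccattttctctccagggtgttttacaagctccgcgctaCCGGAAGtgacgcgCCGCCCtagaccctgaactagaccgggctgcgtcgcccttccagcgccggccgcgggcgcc
Gm35886 had 5 CpG sites and no motif match. Gm35235 had 34 CpG sites, 1 match to the ETS letters and 1 to the SP letters.

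The third group holds 2 of the strongest promoters of the set, both head to head with a coding gene: 4930579K19Rik (chr9:98563562-98563861, minus strand) beside Copb2, and 1810062G17Rik (chr3:36475687-36475986, plus strand) beside Anxa5.
4930579K19Rik: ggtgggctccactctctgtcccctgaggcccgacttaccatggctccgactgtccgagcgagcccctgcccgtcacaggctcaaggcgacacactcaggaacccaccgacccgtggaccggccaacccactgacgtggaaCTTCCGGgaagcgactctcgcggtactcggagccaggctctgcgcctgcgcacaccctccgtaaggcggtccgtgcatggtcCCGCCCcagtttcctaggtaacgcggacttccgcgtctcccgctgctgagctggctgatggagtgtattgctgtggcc
1810062G17Rik: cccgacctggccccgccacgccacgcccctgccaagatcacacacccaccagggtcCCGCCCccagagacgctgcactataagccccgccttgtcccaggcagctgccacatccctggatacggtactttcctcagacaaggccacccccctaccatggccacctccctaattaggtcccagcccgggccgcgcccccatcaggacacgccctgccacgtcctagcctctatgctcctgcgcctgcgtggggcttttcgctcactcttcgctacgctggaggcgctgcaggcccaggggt
These held 26 and 19 CpG sites. The first had 1 match to the ETS letters and 1 to the SP letters, the second 1 to the SP letters. Among 32544 RefSeq promoters of this length, 37.4% held the CCAAT box, 35.9% the SP letters, 13.6% the TATA box letters, 8.91% the ETS letters, 5.19% the AP-1 letters, 1.80% the CRE letters, 0.974% the NRF1 core and 0.854% the YY1 core, and the median promoter had 7 CpG sites. A comparison of sequence features over the whole set was void, because only 64.4% of its genes had a promoter sequence, under the 80% needed.

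Promoters of predicted and unnamed genes carried less H3K4me3 than those of named genes, and the level followed where the gene lay. The median level over the 4 libraries was 16.2 CPM (quartiles 7.03 and 49.5), against 50.3 CPM (23.4 and 74.2) for the single promoters of named genes. Levels under 10 CPM were found at 901 promoters (35.7%), against 11.7% of the named set, and levels of 50 CPM or more at 628 (24.9%), against 50.3%. These are descriptions of 4 libraries, with no test.

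Rik promoters had a median of 42.6 CPM, LOC promoters 27.8 CPM and Gm promoters 13.1 CPM. Genes with a curated coding transcript (NM entries, 167 promoters) had a median of 51.0 CPM, close to the 51.1 CPM of named genes of that class. Curated noncoding transcripts (NR, 838) had 27.9 CPM against 38.9 CPM in the named set. Model coding transcripts (XM, 98) had 28.9 CPM against 49.1 CPM, and model noncoding transcripts (XR, 1270) 12.3 CPM against 60.9 CPM. The gap to named genes was thus widest for XR entries and nearly absent for curated coding ones. The class is that of the transcript assigned to the peak. Whether the named XR promoters belong to noncoding genes was not examined.

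By RefSeq gene type, the median was 41.4 CPM at coding genes, 15.4 CPM at lncRNA genes, 14.6 CPM at small RNA genes and 9.81 CPM at pseudogenes. The position to named coding genes separated the levels further. Head-to-head promoters, defined as those of genes on the opposite strand to a coding gene with starts no more than 1000 bp apart, numbered 409 and had a median of 64.6 CPM. The 424 that started antisense inside a coding gene had 11.5 CPM, the 52 that started inside one on the same strand 17.3 CPM, and the 1375 outside coding genes 12.2 CPM. Head-to-head promoters held 32.7% of the H3K4me3 level summed over the set. Within lncRNA genes alone, 360 head-to-head promoters had a median of 62.6 CPM and the 1011 outside coding genes 10.7 CPM.

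**Figure D1:**
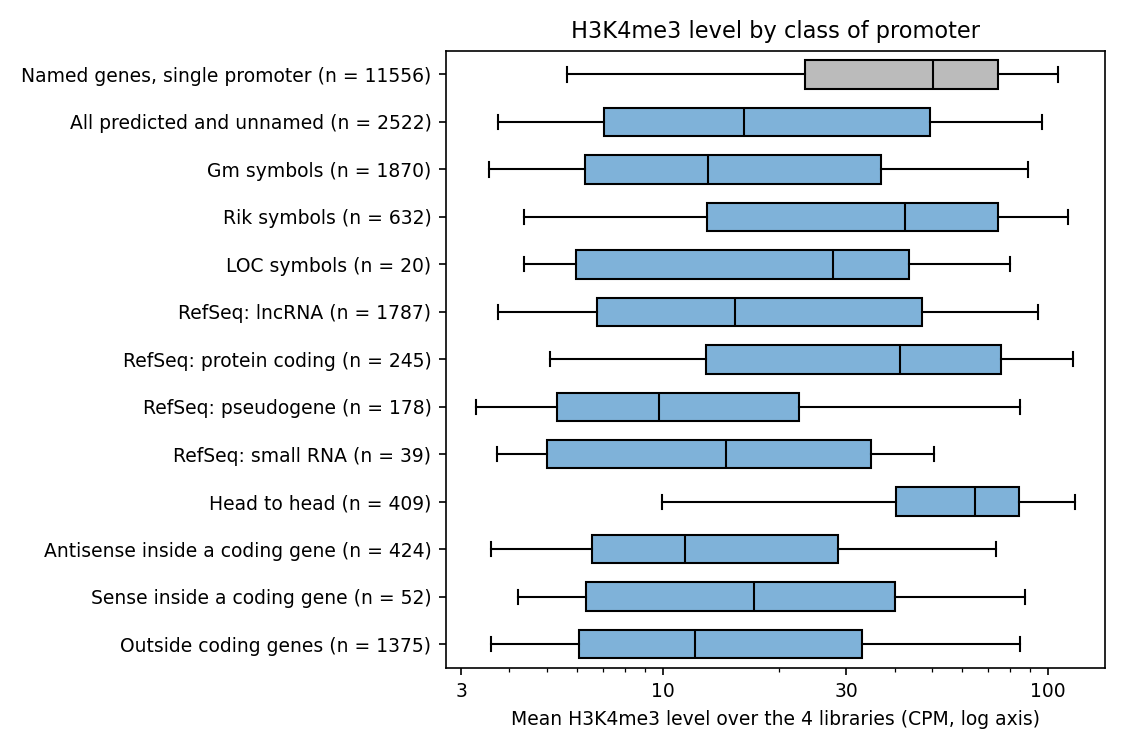
H3K4me3 level (mean CPM over the 4 libraries, log axis) for the single promoters of named genes (grey) and for promoters of predicted and unnamed genes (blue), in all and by symbol, RefSeq gene type and position to named coding genes. Boxes span the quartiles, the line is the median and whiskers reach the 5th and 95th percentiles. The head-to-head box has the highest median of the blue boxes, at 64.6 CPM, and overlaps several of them, among them those of Rik and protein-coding genes.

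Most head-to-head promoters could not be assigned to 1 of their 2 genes, since CUT&Tag reads carry no strand. For 355 of the 409, the table listed no promoter peak under the symbol of the coding partner, and in 288 of these the 2 starts were no more than 400 bp apart, the width of a peak. The peak named for Gm35235 therefore is also the one nearest to the start of Lemd3, which encodes an inner nuclear membrane protein, and the peak named for 1810062G17Rik that nearest to Anxa5, a phospholipid-binding annexin. Only 54 partners had a promoter peak listed under their own symbol, at any start of that gene, and the strongest was taken. That peak need not lie at the shared start, so these pairs are no comparison of the 2 head-to-head starts. In these 54 pairs there was none in which both peaks were called. The peak of the predicted gene alone was called in 4 and that of the partner alone in 7. Of all listed peaks, 3.10% were called higher and 5.52% lower.

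The distance to the start site went with the level too. Peaks over the start site had a median of 30.7 CPM, and the 377 more than 500 bp from it 9.04 CPM. In the named set the values were 56.8 and 28.7 CPM. At the limit of the rule, the 78 promoters 900 bp or more from the start had a median of 8.57 CPM, and the 60 peaks of such symbols just beyond it, out to 1100 bp, had 8.38 CPM.

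The strongest promoter of the set was that of Gm10060 on chromosome 8, a pseudogene in RefSeq, with 315 and 316 CPM in KL and 335 and 366 CPM in KLG4m/m. Next came Gm26917 on chromosome 17, a noncoding transcript, with 291 and 281 CPM in KL and 255 and 265 CPM in KLG4m/m. Neither passed the test between groups (adjusted p = 0.130 and 0.172, edgeR). Reads at a pseudogene may be shared with its parent gene, and the level at Gm10060 is uncertain for that reason. Whether Gm26917 shares reads with other loci was not analysed here. The third to the fifth were 1810062G17Rik with 161 to 178 CPM, A730008H23Rik on a random scaffold of chromosome 1 with 151 to 164 CPM, and 4930579K19Rik. The last had 143 and 143 CPM in KL and 168 and 179 CPM in KLG4m/m, and was called higher (log2 fold change 0.28 ± 0.07 SE, edgeR adjusted p = 0.0184). It starts 120 bp from Copb2, which encodes a subunit of the COPI coat. DESeq2 gave it an adjusted p of 0.317, and edgeR 0.0826 without KL replicate 1 and 0.107 without KL replicate 2.

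The lowest level was at Gm35886, which had 0 to 14 reads per library and was called lower (edgeR adjusted p = 0.00549). The next 4, Gm29831, Gm39847, Gm52502 and Gm23698, had 1 to 16 reads per library and were not called. Weak promoters were measured less precisely than strong ones. Over the 901 promoters under 10 CPM, the median difference between replicates was 0.28 in KL and 0.29 in KLG4m/m on the log2(CPM + 1) scale, and that between group means 0.34. Over the 628 at 50 CPM or more the values were 0.09, 0.11 and 0.12.

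The comparison of KLG4m/m with KL addressed which of these promoters gained or lost H3K4me3 in tumor cells with the Gpx4m/m allele. By edgeR's quasi-likelihood test with an adjusted p under 0.05 over all listed peaks, 62 promoters of the set were higher in KLG4m/m (2.46%) and 142 lower (5.63%). Of all listed peaks, 3.10% were called higher and 5.52% lower, so both shares lay close to that background. Single promoters of named genes were called higher in 2.64% and lower in 9.23%. The median log2 fold change of the 2522 was 0.00 (0.00164), against 0.01 (0.00771) over all listed peaks. By DESeq2, 5 were higher and 16 lower, against 0.152% and 1.15% of the 21726 peaks to which it gave an adjusted p. No edgeR call remained with either KLG4m/m library left out. In those fits the prior degrees of freedom were 2.63, against 24.5 in the full fit, so the loss does not measure the part of the left-out library alone. In bulk libraries such as these, fewer cells with the mark and less of the mark per cell cannot be told apart.

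The share of promoter reads that lay in the set was 10.3% in each KL library (10.32 and 10.30) and 10.34 and 10.40 in the KLG4m/m libraries. The groups did not overlap, and the difference of 0.0599 percentage points had an exact permutation p of 0.333 (two-sided), the smallest that 2 libraries against 2 allow. With reads in all listed peaks as the denominator the difference was -0.0287.

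The 62 higher promoters had a median log2 fold change of 0.84 and a median level of 16.8 CPM, and 22 of them changed at least 2-fold. The 142 lower promoters had a median of -0.76 at a median level of 23.7 CPM, and 48 changed at least 2-fold. In all 204 the values of the groups did not overlap, which was also so at 53.6% of the whole set and 54.2% of all listed peaks. Gm genes gave 46 of the higher and 95 of the lower promoters, Rik genes 16 and 45, and LOC genes 0 and 2. Pseudogene promoters were called in 4 and 10 of 178 cases, those of coding genes in 5 and 16 of 245, and those of lncRNA genes in 49 and 94 of 1787. Head-to-head promoters were called higher in 1.71% and lower in 7.82%, and promoters outside coding genes in 2.91% and 4.51%. These shares were not tested against each other.

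**Figure D2:**
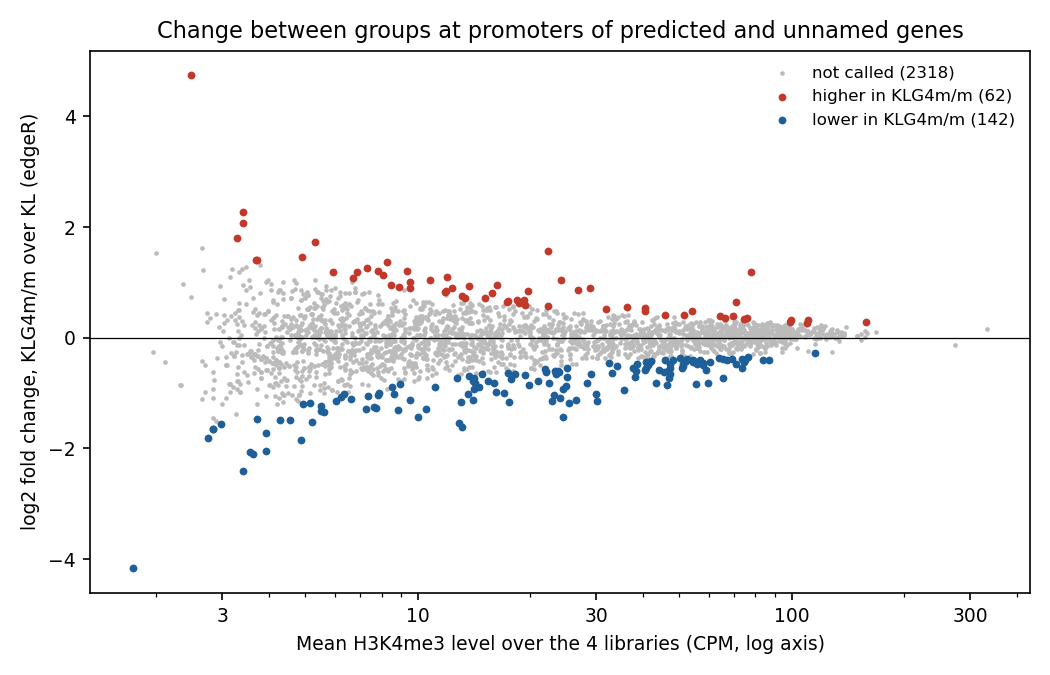
Change of H3K4me3 between groups (log2 fold change of KLG4m/m over KL, edgeR) against the mean level (CPM, log axis), 1 point per promoter of a predicted or unnamed gene. The 62 promoters called higher (red) and 142 called lower (blue) are spread over the range of levels, with smaller changes called where the level is higher; the 2 points farthest from 0 are Gm20426 and Gm35886, each with at most 1 read per library in 1 group.

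Calls were set beside those of named genes at matched levels. Between 10 and 50 CPM, 28 of 993 promoters of the set were higher (2.82%) and 74 lower (7.45%), against 2.80% and 15.4% of 4389 named promoters. Between 50 and 100 CPM, 2.10% were higher and 6.12% lower, against 2.34% and 5.90%. At 100 CPM or more, 3 of 105 were higher and 1 lower. Lower calls were thus a smaller share of the set than of the named promoters up to 50 CPM, a description with no test.

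**Figure D3:**
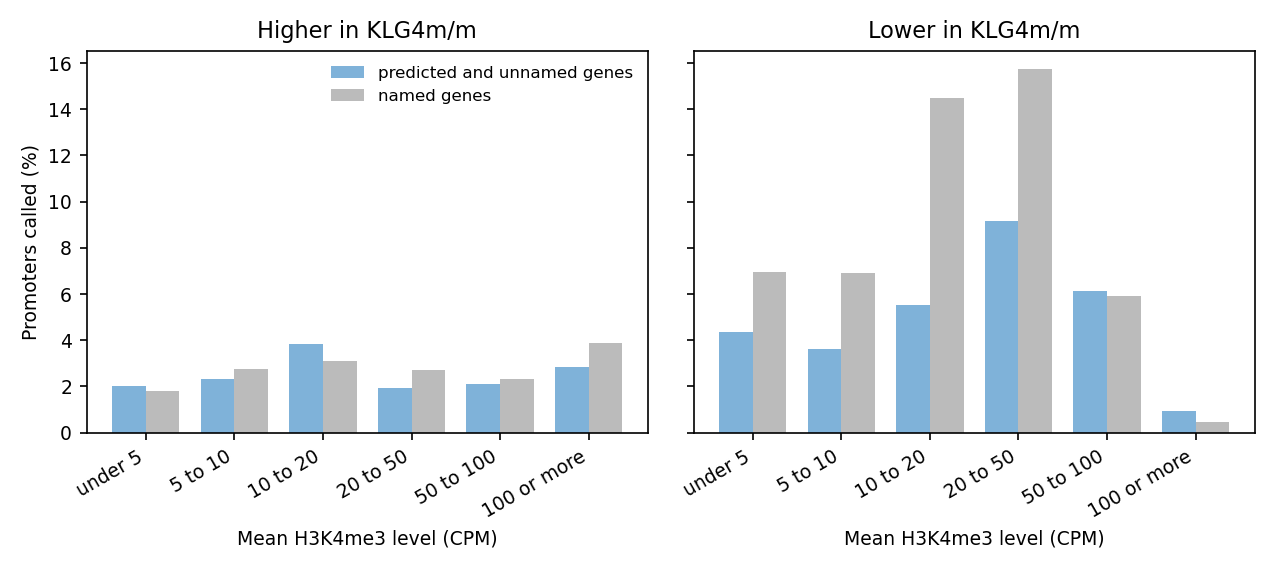
Share of promoters called higher (left) or lower (right) in KLG4m/m (%, edgeR adjusted p under 0.05) by mean level in CPM, for predicted and unnamed genes (blue) and single promoters of named genes (grey). The bars differ most for lower calls from 20 to 50 CPM, at 9.18% and 15.7%, and from 10 to 20 CPM, at 5.53% and 14.5%.

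The rise with the smallest adjusted p was at 2700054A10Rik, an lncRNA gene on chromosome 17. Its peak (chr17:13772960-13773360 in the authors' coordinates, whose build is not named) lay 996 bp downstream of the annotated start, just inside the limit. It had 46.3 and 48.7 CPM in KL and 115 and 102 CPM in KLG4m/m, so that the groups stood well apart. The log2 fold change was 1.19 ± 0.10 (edgeR adjusted p = 7.71e-08, DESeq2 adjusted p = 2.29e-09). A second peak of the gene, 1851 bp away, had 73 and 66 reads in KL and 161 and 149 in KLG4m/m and rose as well (1.21, edgeR adjusted p = 5.96e-06).

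Gm34704, an lncRNA gene on chromosome 11, had the largest log2 fold change of the promoters with at least 10 CPM in the higher group. Its level was 10.9 and 11.5 CPM in KL and 32.8 and 34.1 CPM in KLG4m/m (1.57 ± 0.18, edgeR adjusted p = 2.97e-06, DESeq2 8.01e-05). Of the 3 listed peaks nearest to it, that at the promoter of Atp2a3, 20908 bp away, was called higher too (0.38, adjusted p = 0.0274). Atp2a3 encodes a calcium pump of the endoplasmic reticulum. The promoter of the neighbouring Gm34793, 5478 bp away, had 52, 40, 49 and 44 reads in replicates 1 to 4 and was not called.

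Gm13012, antisense inside the endothelin-converting enzyme gene Ece1, had 16.4 and 15 CPM in KL and 32.5 CPM in each KLG4m/m library (1.05 ± 0.17, edgeR adjusted p = 0.000208, DESeq2 0.0202). The Ece1 promoter, 21531 bp away, had 338 and 308 reads in KL and 402 and 335 in KLG4m/m, and was not called (adjusted p = 0.0852). Gm30461, antisense inside Gpr132, a G protein-coupled receptor gene of immune cells, had 58.1 and 53.0 CPM in KL and 83.2 and 90.1 CPM in KLG4m/m (0.64 ± 0.10, edgeR adjusted p = 0.000208, DESeq2 0.0158). A Gpr132 promoter peak 3508 bp away had 89 and 84 reads in KL and 113 and 111 in KLG4m/m (adjusted p = 0.0708). B430306N03Rik, a coding gene on chromosome 17, had 19.8 and 20.5 CPM in KL and 36.5 and 38.4 CPM in KLG4m/m (0.89 ± 0.15, edgeR adjusted p = 0.000473, DESeq2 0.0381). Its promoter, shown above, is CpG-poor. A peak near Treml2, a receptor gene of the TREM family of myeloid and lymphoid cells, lay 13234 bp away and was also called higher (0.73, adjusted p = 0.0295). Of the leukocyte marker promoter peaks, 2 of 10 were called higher and 1 lower, and their part in these rises was not tested.

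The other 7 largest rises were smaller in level. Gm35891, whose promoter is shown above, had 4.32 and 4.90 CPM in KL and 11.9 and 12.1 CPM in KLG4m/m (1.37 ± 0.28, edgeR adjusted p = 0.00279). Gm34084, Gm32131, Gm30085, 4833428L15Rik, Gm36417 and Gm29918, all lncRNA genes, had 4.03 to 8.05 CPM in KL and 9.29 to 17.6 CPM in KLG4m/m, with log2 fold changes from 1.04 to 1.25. None of the 7 was called by DESeq2, which gave 4 of them no adjusted p. Without KL replicate 2, edgeR lost the calls at Gm34084 (adjusted p = 0.0577), 4833428L15Rik (0.0839) and Gm29918 (0.0707). Gm36417 lay in a stretch of chromosome 2 with 13 other listed peaks within 50 kb, of which 4 were called higher and none lower. One of these was the promoter of the neighbouring Gm36462, where the KL libraries had 58 and 45 reads and the KLG4m/m libraries 88 and 71.

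**Figure D4:**
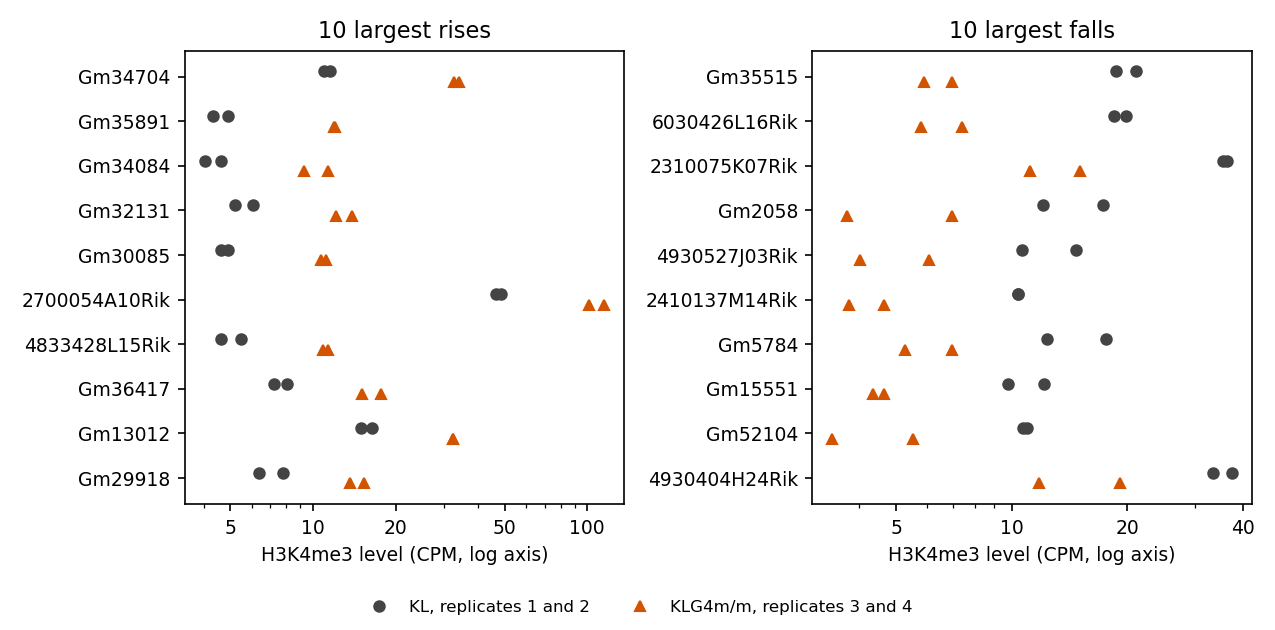
H3K4me3 level (CPM, log axis) in each library for the 10 largest rises (left) and the 10 largest falls (right) among called promoters with at least 10 CPM in the higher group. Circles are the 2 KL libraries and triangles the 2 KLG4m/m libraries; the groups do not overlap at any of the 20, which was a condition of their choice.

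Gm35515 had the largest fall of the called promoters that reached 10 CPM in KL. This lncRNA gene on chromosome 5 starts 43 bp from Cabp1, the gene of a neuronal calcium-binding protein. It had 18.7 and 21.0 CPM in KL and 6.96 and 5.88 CPM in KLG4m/m (-1.62 ± 0.23, edgeR adjusted p = 6.65e-05, DESeq2 0.00654). A further Cabp1 peak, 6189 bp away, had 54 and 57 reads in KL and 74 and 55 in KLG4m/m and was not called. The fall was thus not seen at the next peak of the partner gene.

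2310075K07Rik starts 96 bp from Prep, which encodes prolyl endopeptidase, and had the smallest adjusted p among the falls. Its level was 35.4 and 36.3 CPM in KL and 15.1 and 11.1 CPM in KLG4m/m (-1.44 ± 0.18, edgeR adjusted p = 7.08e-06, DESeq2 0.000235). No promoter peak was listed under the symbol Prep. Gm35235, beside Lemd3, had 58.4 and 61.4 CPM in KL and 35.4 and 30.3 CPM in KLG4m/m (-0.86 ± 0.13, edgeR adjusted p = 8.01e-05, DESeq2 0.00522).

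Among the called head-to-head promoters, 7 were higher and 32 lower in KLG4m/m. For 35 of these 39, no promoter peak was listed under the symbol of the partner. Their partners included Dhx15, an RNA helicase gene, beside 9230114K14Rik, with 89.2 and 73.7 CPM in KL and 49.0 and 49.5 CPM in KLG4m/m (-0.73, edgeR adjusted p = 0.000141). They also included Ube2j1, a ubiquitin-conjugating enzyme gene of the endoplasmic reticulum, beside 4933421O10Rik, with 46.0 and 47.8 CPM in KL and 24.9 and 23.8 CPM in KLG4m/m (-0.94, edgeR adjusted p = 9.65e-05). Siah1a, a ubiquitin ligase gene, lies beside Gm10638, which had 38 and 42.3 CPM in KL and 20.9 and 18.6 CPM in KLG4m/m (-1.02, edgeR adjusted p = 0.000122). In each of these 3 the peak cannot be told apart from the promoter of the coding gene. Of the 7 higher ones, Gm26512, 938 bp from the start of the deiodinase gene Dio2, had the largest change, at 18.7 and 19.3 CPM in KL and 32.5 and 37.2 CPM in KLG4m/m (0.87, edgeR adjusted p = 0.000946). These 4 were named after their values were seen.

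Other falls with a small adjusted p were not head to head or not found in RefSeq. Gm32178 on chromosome 7, outside coding genes, had 73.4 and 79.5 CPM in KL and 45.5 and 40.6 CPM in KLG4m/m (-0.83 ± 0.11, edgeR adjusted p = 2.98e-05, DESeq2 0.00162). A listed peak of the zinc finger gene Zfp592 lay 2805 bp away and was not called, at 71 and 85 reads for KL and 87 and 90 for KLG4m/m. Gm53682 on chromosome 11, not matched in RefSeq, had 37.1 and 46.1 CPM in KL and 20.3 and 17 CPM in KLG4m/m (-1.15 ± 0.16, edgeR adjusted p = 5.78e-05, DESeq2 0.00248). 4930404H24Rik, antisense inside Nol4l, had 33.4 and 37.4 CPM in KL and 19.1 and 11.8 CPM in KLG4m/m (-1.18 ± 0.18, edgeR adjusted p = 0.000159, DESeq2 0.00764). Its KLG4m/m libraries differed from each other more than the KL libraries did, and both lay below them. The remaining falls among the 10 largest were at Gm2058, 4930527J03Rik, 2410137M14Rik, Gm15551 and Gm52104, with 9.78 to 17.3 CPM in KL, 3.41 to 6.96 CPM in KLG4m/m and log2 fold changes from -1.44 to -1.26, and at 2 genes of chromosome 12. DESeq2 called none of these 5, with an adjusted p of 0.0873 for Gm2058 and none given for the other 4. Without KL replicate 2, edgeR lost the calls at 4930527J03Rik (adjusted p = 0.0696) and Gm15551 (0.0708).

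These 2, 6030426L16Rik and Gm5784, lay within the same 3 Mb. Between 19 and 22 Mb of chromosome 12, a stretch chosen after the calls were seen, 5 of 8 promoters of the set were lower and none higher. Lower calls made up 5.52% of all listed peaks and higher calls 3.10%. As the calls chose the stretch, its count cannot be weighed against these shares. 6030426L16Rik had 19.8 and 18.4 CPM in KL and 5.80 and 7.43 CPM in KLG4m/m (-1.53 ± 0.23, edgeR adjusted p = 0.000129, DESeq2 0.0132). The peak next to it, of the pseudogene Mrto4-ps2, had 42 and 44 reads in KL and 10 in each KLG4m/m library (-2.03, edgeR adjusted p = 0.000134). Gm5784 had 43 and 61 reads in KL and 24 and 17 in KLG4m/m, Gm5953 29 and 26 against 12 and 9, Gm16476 111 and 112 against 61 and 51, and 1700030C10Rik 58 and 60 against 41 and 29. The edgeR adjusted p of these 4 ran from 0.000678 to 0.0438. DESeq2 called none of the 4, with an adjusted p of 0.127 for Gm5784, 0.0507 for Gm16476 and 0.533 for 1700030C10Rik and none given for Gm5953, and edgeR lost the call at Gm5784 without KL replicate 2 (0.0557). Gm9269, 3110053B16Rik and Gm31676 were not called, and 3 of the 12 other listed peaks of the stretch were lower. Whether these genes share reads with near-identical copies was not analysed here.

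On scaffolds and chromosome X, 4 promoters were called. Of the 45 on chromosome X, 2.22% were called higher and 4.44% lower, near the 3.10% and 5.52% of all listed peaks. On scaffolds it was 1 of 4, called lower. LOC630077, a pseudogene on an unplaced scaffold, had 21 and 20 reads in KL and 6 and 3 in KLG4m/m (-2.10 ± 0.47, edgeR adjusted p = 0.00600). G530011O06Rik, antisense inside Mid1 on chromosome X, had 15 and 14 reads in KL and 33 and 31 in KLG4m/m (1.19 ± 0.30, edgeR adjusted p = 0.0142, and 0.0757 without KL replicate 2). Its RefSeq promoter has an entry on chromosome X and 1 on chromosome Y, and the 2 copies cannot be told apart here. Gm715 and B630019K06Rik, both on chromosome X, were lower (-1.23 and -0.65, edgeR adjusted p = 0.0306 and 0.0452), and DESeq2 called none of the 4, giving an adjusted p (0.551) to B630019K06Rik alone. Without KL replicate 1, edgeR lost the calls at Gm715 (0.213) and B630019K06Rik (0.0867), and without KL replicate 2 again that at B630019K06Rik (0.186).

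Reads were nearly absent from 1 group at 2 promoters. Gm35886, an lncRNA gene on chromosome 2 whose promoter is shown above, had 9 and 14 reads in KL and 0 and 1 in KLG4m/m. The summed reads were 22.2 times higher in KL per read in peaks, with an exact 95% interval of 3.61 to 916 that covers counting error only (edgeR adjusted p = 0.00549, and 0.0623 without KL replicate 2). Gm20426, a pseudogene on chromosome 6 named after its values were seen, went the other way, with 1 and 0 reads in KL and 16 in each KLG4m/m library. The ratio was 33.1 in favour of KLG4m/m with an interval of 5.53 to 1347 (edgeR adjusted p = 0.000504).

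The listed peak nearest to a called promoter was called in the same direction in a minority of cases. Of the 52 higher ones with another listed peak within 50 kb, that peak was called higher in 6 and lower in 1, and of the 112 lower ones it was called lower in 8 and higher in 3. Beside the 2002 promoters of the set that were called in neither direction, the nearest peak was higher in 53 (2.65%) and lower in 106 (5.29%). Over all listed peaks, the nearest peak was called in the same direction for 16.7% of the higher and 7.89% of the lower ones, beside 11.5% and 7.14% here.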

How the data were processed

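H3K4me3 CUT&Tag libraries from 2 KL and 2 KLG4m/m samples were analysed; the H3K27ac libraries were not analysed here. Per the submitters' processing notes and the study's methods, the authors trimmed reads with Trim Galore 0.6.10, mapped them with BWA 0.7.15, handled duplicates with Picard 2.17.3, called peaks with MACS2 2.2.7.1 and named HOMER 4.11.1 for annotation. The authors deposited 1 table with whole read counts per peak and library, without normalization, and CPM scaled to reads in listed peaks. Its log2 fold changes, p-values and other columns of the authors' own comparison were not used. The authors' distance to the start site chose the promoters (1 kb). Scaling to reads in peaks hides any shift common to all peaks. The build of the positions is not named, and 43 of 2262 matched genes start within 10 bp of their start in GRCm38.p6, so positions and RefSeq sequences were never mixed. RefSeq gave gene types, and starts of neighbours were compared within RefSeq. Strands came from the authors' annotation where it held the gene, and otherwise from RefSeq. Of 20014 named coding genes in RefSeq, 18701 had a strand and could count as neighbours. A promoter beside one of the rest may be counted as outside coding genes.

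Counts were tested with edgeR 4.0.16 (quasi-likelihood, TMM, no filter on low counts, no covariate) in R 4.3.3, with Benjamini-Hochberg adjustment over all 35486 peaks and a threshold of 0.05. DESeq2 1.42.0, limma 3.58.1 on log2(CPM + 1), other scalings, a filter and leaving out each library were alternatives. Printed CPM are TMM-scaled counts. The SE after each ± is the size of the log2 fold change divided by the square root of edgeR's F statistic. Scripts were tested on simulated data. Groups came from the sample labels; 1 further allele that both groups share and 1 single marker value are not reported here. Over the promoters of the set, KL replicates differed by a chi-square per degree of freedom of 1.12 and KLG4m/m replicates by 1.26. These values lie a little above what counting error alone gives, and they do not show that the libraries came from separate mice. All 4 libraries were counted separately, and the p-values may not hold the spread between mice. Intervals cover counting error only, since reads carry no molecular identifiers.

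Named promoters were, among called promoters without overlap between groups and with a mean of 10 CPM or more in the higher group, the 10 largest rises and the 10 largest falls; the 5 with the smallest adjusted p in each direction; the 5 highest and 5 lowest levels; and up to 10 called on scaffolds or sex chromosomes. No promoter peak of a named gene lay within 1 kb of a named rise or fall. The promoters and the lists were chosen with earlier results of these data known.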

Additional observations from a re-analysis of the deposited data

How the results depend on the processing

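The counts of 62 higher and 142 lower promoters stayed within 1.5 times under RLE size factors, library totals, centring on strong named promoters, limma with either pseudocount, a filter on low counts and a fit of promoter peaks alone. DESeq2 gave 5 and 16; 17 of the 62 and 34 of the 142 had no adjusted p there. Leaving out 1 library gave 0 to 52 higher and 0 to 112 lower promoters and a median log2 fold change of the set from -0.0134 to 0.00800. The counts were 52 and 112 without KL replicate 1, 27 and 67 without KL replicate 2, and 0 without KLG4m/m replicate 3 or 4, where edgeR called 0 of all listed peaks and the lone library was assumed to vary like the KL pair. All 204 called promoters kept their direction in every leave-out. Their groups did not overlap, so leaving out 1 library could hardly change a sign, and the kept direction is no support for the calls. The prior degrees of freedom were 2.63 without KLG4m/m replicate 3 or 4, 24.5 in the full fit and infinite without KL replicate 1 or 2. The leave-out counts thus differ in more than the library left out and cannot be compared on equal terms. Centring on strong named promoters moved the median log2 fold change of the set to -0.0227. The difference in read share became -0.0287 with all listed peaks as the denominator, and the cause was not tested. Of the 39 named promoters, 3 lost their call without KL replicate 1, 10 without KL replicate 2, 31 with either KLG4m/m library left out and 7 under DESeq2. Only 31 of the 39 had been called with all libraries. DESeq2 gave no adjusted p, and so no call, at Gm35891, Gm34084, Gm30085, 4833428L15Rik, 4930527J03Rik, 2410137M14Rik, Gm15551, Gm52104, Gm35886, LOC630077, G530011O06Rik and Gm715, which edgeR had called. In 2 of the 39, the direction reversed: Gm29831 (-1.19 to 0.62 over the leave-outs, above 0 without replicate 2 or 4, at 0.62 and 0.27) and Gm23698 (-2.22 to 0.19, above 0 without replicate 1), neither of them called. No paired analysis was possible because the KL libraries carry the replicate numbers 1 and 2 and the KLG4m/m libraries 3 and 4, with none shared. Depth limits the set more than named genes: 35.7% of its promoters lay under 10 CPM.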
